A study of Homo sapiens with 9 samples.

Results

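The kinesin genes of human MDA-MB-231 cells were followed through exposure to a splicing inhibitor and release from it. MDA-MB-231 is an established line of triple-negative breast cancer, a tumour class without oestrogen receptor, progesterone receptor or ERBB2 amplification. Polyadenylated RNA was sequenced from 9 libraries in 3 groups of 3. The first group received DMSO, the solvent. The PdB group received 10 nM pladienolide B for 16 h. The recovery group was taken 24 h after the end of such a treatment. All groups are this same line with no engineered allele named in the labels, the solvent control is given without a time of its own in the labels, and no untreated cells kept for the length of the recovery are among the libraries used. Kinesins were taken as every row of the count table whose Ensembl ID maps to a protein-coding symbol of the form KIF or KIFC followed by a digit, which gave 42 of 60708 genes, and 35 of them passed the filter on low counts and were tested.

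Kinesins are motor proteins that hydrolyse ATP to move along microtubules or to take microtubule ends apart. In dividing cells a subset builds the bipolar spindle, aligns chromosomes and organises the midzone from which daughter cells separate. In interphase other members carry vesicles, organelles, messenger RNA and the building blocks of cilia, mostly towards the microtubule plus end, with dynein as the opposing motor. Most mitotic kinesin genes are transcribed in the later phases of the cell cycle, and their transcripts are low in resting cells. Pladienolide B binds SF3B1, a protein of the spliceosome's U2 particle that recognises branch points, and so blocks the removal of introns from new transcripts.

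Total counts per library lay between 56389689 and 67047079. A floor of 3 counts in a library corresponds to 0.0433 to 0.0576 CPM (read counts relative to the library's scaled total) and covers counting error only. The line's mesenchymal markers were abundant, with VIM at 2812 to 2909 CPM and AXL at 1964 to 2064 CPM in DMSO. ESR1 had no count in any DMSO library, CDH1 lay between 0.0317 and 0.693 CPM, and ERBB2 lay between 102 and 110 CPM. Of the markers of other cells, CD3E was at 0 in every DMSO library, PTPRC was at most 0.523 CPM and PECAM1 at most 1.02 CPM. The labels do not say that the 3 libraries of a group came from separate cultures, so the p-values below measure only the spread between these libraries, which may be technical. In bulk RNA, fewer dividing cells and less RNA of a gene per cell cannot be told apart, and RNA content per cell is unknown here.

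Under PdB, 28 of the 35 tested kinesins fell and 3 rose, while 4 did not pass the test. Of all 20812 tested genes, 38.2% fell and 32.0% rose in that comparison. The median log2 change was -1.23 for the tested kinesins and -0.11 for all tested genes. At recovery against DMSO, 16 kinesins were lower and 7 were higher, beside 30.5% and 30.7% of all tested genes, and the medians were -0.19 and 0.03. At recovery against PdB, 24 kinesins were higher and 6 were lower, beside 34.6% and 31.5% of all tested genes, and the medians were 0.94 and 0.06. These 3 comparisons share libraries in pairs, so their counts are not independent of each other. Without the scaling for composition, on library totals alone, the median of all genes under PdB moved from -0.11 to -0.31, and 28 kinesins were then higher and 2 lower at recovery against PdB, beside 8862 and 4876 of all genes in place of 7204 and 6563. The 7 members that were not tested had few or no counts. KIF2B, a spindle kinesin known from testis, and KIF19, a ciliary depolymerase, had 0 counts in all libraries, and KIF1A and KIF26A had 1 count each. KIF6 had counts of 0, 7 and 3 in DMSO and none under PdB. KIF5C, a neuronal heavy chain, had counts of 0, 1 and 4 in DMSO, of 1, 33 and 10 under PdB and of 4, 8 and 5 at recovery. KIF12 was the remaining untested member.

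**Figure D1:**
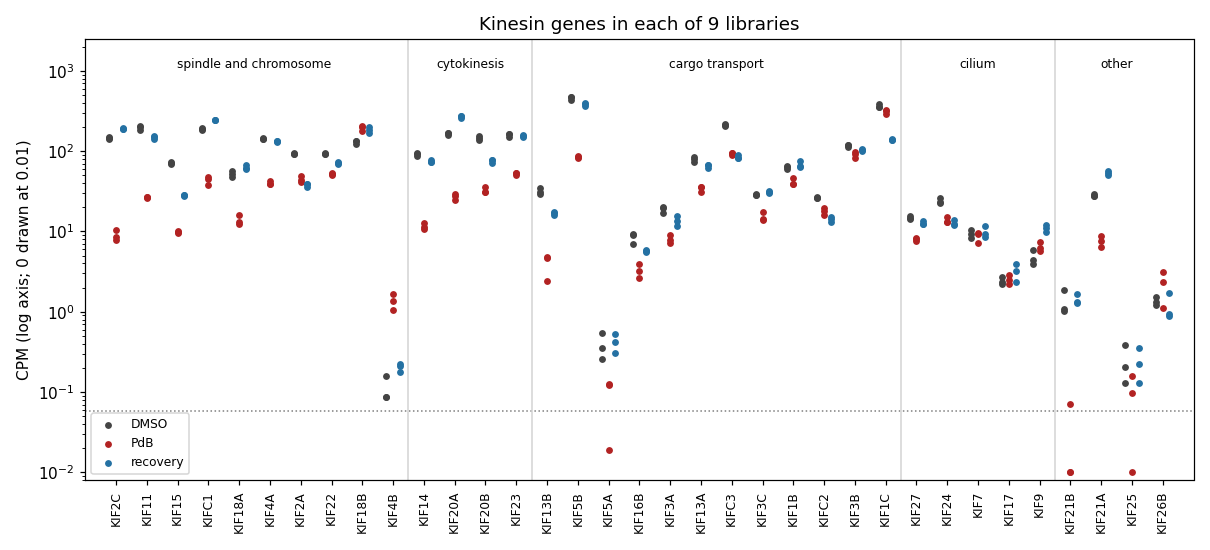
CPM (log axis, 0 drawn at 0.01) of each tested kinesin gene in each of 9 libraries, grouped by role, with the dotted line at the highest value that 3 counts have in a library. Points of 1 gene are DMSO, PdB and recovery from left to right, and most spindle, cytokinesis and transport genes show a drop in the middle position, while KIF18B and KIF4B show a rise.

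The family's summed level was 3169 ± 70.4 CPM (SD, n = 3) in DMSO, 1313 ± 29.1 CPM under PdB and 2704 ± 42.8 CPM at recovery. The cytokinesis kinesins together went from 560.0 ± 24.1 to 124 ± 6.66 and then 574 ± 18.4 CPM. The spindle and chromosome kinesins went from 1113 ± 23.5 to 436 ± 18.4 and then 1103 ± 17.1 CPM. In both of these sums the recovery libraries overlapped the DMSO libraries. The cargo transport kinesins went from 1409 ± 31.5 to 704 ± 9.29 and then 921 ± 6.43 CPM. Their recovery libraries, at 916 to 928 CPM, stayed well under the lowest DMSO library at 1381 CPM. The cilium and flagellum kinesins summed to 55.4 ± 1.82, 39.4 ± 0.880 and 49.5 ± 1.51 CPM in the same order. The members outside these 4 roles, of which KIF21A makes up most, summed to 31.2 ± 0.535, 9.87 ± 1.93 and 56.4 ± 2.80 CPM. No test was run on these sums.

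Per length of merged exons, as RPKM (CPM divided by that length in kilobases), the order of the kinesins changed between conditions. In DMSO the highest was KIF5B at 78.5 ± 3.76 RPKM (SD, n = 3), the heavy chain of conventional kinesin, followed by KIFC1 at 56.6 ± 1.31 RPKM. KIF1C, KIF20A, KIF11 and KIF2C came next at 42.3 ± 2.08, 41.7 ± 1.19, 40.3 ± 2.44 and 39.9 ± 0.919 RPKM. The ranges of mean ± SD of these 4 overlap, though every KIF1C library was above every KIF2C library. Under PdB the top level was KIF18B at 41.8 ± 2.64 RPKM, then KIF1C at 36.4 ± 2.03 RPKM. KIF3B at 14.8 ± 1.25 RPKM and KIF5B at 14.4 ± 0.336 RPKM followed and did not differ beyond their spread, and KIF2C had dropped to 2.44 ± 0.368 RPKM. At recovery the highest were KIFC1 at 74.0 ± 0.0667, KIF20A at 68.0 ± 2.32 and KIF5B at 64.5 ± 2.55 RPKM. KIF22, KIFC1, KIF27 and KIF7 share 13.0%, 12.7%, 13.1% and 11.8% of their exon bases with other annotated genes, so some of their reads are uncertain. Levels per length depend on the annotated exons, which may be longer than the transcripts used in these cells.

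Of the 10 tested spindle and chromosome kinesins, 8 fell and 2 rose under PdB, beside 38.2% and 32.0% of all tested genes. Their median log2 change was -1.87. KIF2C, also called MCAK, takes microtubules apart at kinetochores so that wrong attachments are released, and lies on chromosome 1 (GRCh38, chr1:44739818-44767767, plus strand). It stood at 149, 142 and 145 CPM in DMSO, at 8.46, 10.4 and 7.86 CPM under PdB and at 194, 187 and 188 CPM at recovery. All PdB libraries were far below all others, and all recovery libraries were above all DMSO libraries. The log2 change was -4.03 ± 0.079 (SE) under PdB, a 16.3-fold fall (adjusted p = 2.3e-17), and 0.38 ± 0.066 at recovery against DMSO (adjusted p = 5.8e-05).

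KIF11, or Eg5, is the plus-end motor that slides antiparallel microtubules apart to separate the spindle poles (chr10:92593286-92655395, plus strand). Its levels were 206, 199 and 183 CPM in DMSO, 26.2, 26.6 and 27.2 CPM under PdB and 154, 142 and 148 CPM at recovery. The groups did not overlap, and recovery lay between PdB and DMSO. The log2 change was -2.88 ± 0.059 under PdB (adjusted p = 3e-17) and -0.40 ± 0.053 at recovery against DMSO (adjusted p = 2.7e-06). KIF15 can take over from KIF11 in keeping the spindle bipolar. Its levels were 70.7, 69.3 and 72.7 CPM in DMSO, 10.1, 9.57 and 9.78 CPM under PdB and 28.6, 28.3 and 27.3 CPM at recovery. KIF15 fell by 2.85 ± 0.069 on the log2 scale under PdB (adjusted p = 1.8e-16) and was still lower than DMSO by -1.34 ± 0.063 at recovery (adjusted p = 2.9e-12).

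Of the 10 tested spindle kinesins, 4 were higher and 4 lower at recovery than in DMSO, beside 30.7% and 30.5% of all tested genes. KIFC1, a minus-end motor that bundles spindle poles and clusters extra centrosomes, was among those higher. It stood at 190.0, 185 and 194 CPM in DMSO, 37.4, 47.2 and 45.6 CPM under PdB and 247, 248 and 248 CPM at recovery. The log2 changes from DMSO were -2.13 ± 0.068 under PdB (adjusted p = 5.3e-15) and 0.39 ± 0.064 at recovery (adjusted p = 4e-05). KIF18A, which damps chromosome movement at the metaphase plate, went from 56.6, 52.2 and 47.1 CPM to 12.3, 16.0 and 13.2 CPM and then to 66.4, 62.3 and 59.6 CPM. Its recovery libraries lay above its DMSO libraries, with a log2 change of 0.27 ± 0.086 (adjusted p = 0.011). That call was lost without DMSO replicate 3 (0.20, adjusted p = 0.075) and without recovery replicate 1 (0.23, adjusted p = 0.059). KIF4A, a chromokinesin that works with condensin and shortens midzone microtubules, went from 143, 147 and 140 CPM to 39.2, 42.6 and 38.5 CPM and then to 133, 131 and 134 CPM. It fell by 1.83 ± 0.053 on the log2 scale under PdB (adjusted p = 1.5e-15). Its change at recovery against DMSO, -0.11 ± 0.051, did not pass the test (adjusted p = 0.072), and it passed without PdB replicate 3 (adjusted p = 0.043). That change also passed in the fit of only the 6 libraries compared.

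KIF2A and KIF22 fell less and were not back at the DMSO level. KIF2A, a depolymerase of spindle poles related to KIF2C, had 94.2, 93.4 and 92.2 CPM in DMSO, 40.7, 49.4 and 44.2 CPM under PdB and 35.9, 38.7 and 39.4 CPM at recovery. Its log2 changes from DMSO were -1.06 ± 0.068 (adjusted p = 8.3e-11) and -1.30 ± 0.068 (adjusted p = 1.2e-11). The further drop from PdB to recovery was small, at -0.24 ± 0.068 (adjusted p = 0.0054), was 0.03 on library totals and missed the threshold without PdB replicate 2 (-0.16, adjusted p = 0.053). KIF22, a chromokinesin that pushes chromosome arms outwards, went from 92.2, 95.2 and 91.6 CPM to 53.0, 52.6 and 50.6 CPM and then to 72.3, 68.9 and 70.6 CPM, with log2 changes from DMSO of -0.84 ± 0.052 (adjusted p = 5.9e-11) and -0.40 ± 0.052 (adjusted p = 2.2e-06). Per length, the ratio of KIF2C to KIF2A was 2.07, 1.99 and 2.06 in DMSO, 0.272, 0.277 and 0.233 under PdB and 7.07, 6.31 and 6.24 at recovery. KIF2C was thus the lower of these 2 depolymerases under PdB and the higher in both other groups. KIF2A shares 9.0% of its exon bases with IPO11 on the same strand, and reads there may belong to either gene.

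Of the kinesins above 10 CPM in DMSO, KIF18B alone rose under PdB. It moves to the plus ends of astral microtubules and shortens them, and is the closest relative of KIF18A (chr17:44924709-44947711, minus strand). Its levels were 135, 132 and 124 CPM in DMSO, 204, 199 and 181 CPM under PdB and 185, 202 and 170.0 CPM at recovery. PdB and recovery libraries overlapped each other and all lay above DMSO. The log2 change was 0.58 ± 0.063 under PdB (adjusted p = 1.5e-07) and 0.51 ± 0.063 at recovery against DMSO (adjusted p = 1.1e-06). The change from PdB to recovery, -0.07 ± 0.062, did not pass the test (adjusted p = 0.35), while on library totals it was 0.20 (adjusted p = 0.0054). Per length, the ratio of KIF18A to KIF18B fell from 0.419, 0.393 and 0.378 in DMSO to 0.0602, 0.0800 and 0.0728 under PdB and was 0.358, 0.308 and 0.350 at recovery.

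**Figure D2:**
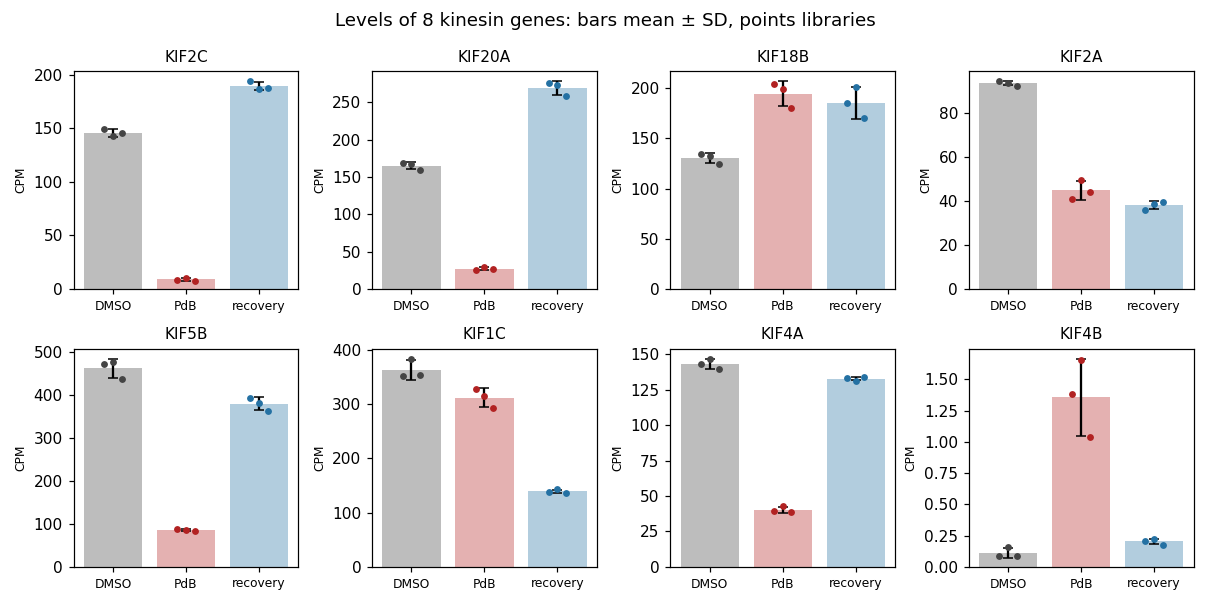
CPM of 8 kinesin genes, bars giving the mean and error bars the SD of 3 libraries, points the libraries. KIF2C and KIF20A drop under PdB and end above DMSO, KIF2A stays low, KIF18B stays high, KIF1C is lowest at recovery, and KIF4B peaks under PdB while KIF4A drops.

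KIF4B, the other kinesin of this role that rose, is an intronless copy of KIF4A. KIF4A has 30 introns and lies on chromosome X (chrX:70290090-70420832, plus strand), and KIF4B lies on chromosome 5 (chr5:155013755-155018132, plus strand). KIF4B had 6, 10 and 6 counts in DMSO, 78, 93 and 54 counts under PdB and 13, 14 and 12 counts at recovery. It passed the filter on its PdB and its recovery libraries and not on its DMSO libraries. In CPM it was 0.0879, 0.159 and 0.0866 in DMSO, 1.38, 1.65 and 1.04 under PdB and 0.208, 0.223 and 0.178 at recovery, a log2 change of 3.60 ± 0.53 under PdB (adjusted p = 6.9e-06) and 0.87 ± 0.54 at recovery against DMSO (adjusted p = 0.18). The ratio of KIF4A to KIF4B per length was 1570, 893 and 1560 in DMSO and 27.4, 24.9 and 35.9 under PdB. Their open reading frames agree at 3547 of 3699 aligned bases (95.9%), and 14.0% of the 50-base windows of the KIF4B transcript also occur in KIF4A transcripts, so reads of a shared window could be counted for either gene. How the authors treated such reads is not given in the sources used here. The stretch from base 167 to base 226 of both reading frames is shown, with its 7 differing bases in capitals, as an example of where reads can be told apart. It differs more densely than the reading frame as a whole, which has 152 differences.
KIF4A: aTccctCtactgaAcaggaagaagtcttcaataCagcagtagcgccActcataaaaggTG
KIF4B: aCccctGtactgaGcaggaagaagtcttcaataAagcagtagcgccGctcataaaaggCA

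All 4 cytokinesis kinesins fell under PdB, beside 38.2% of all tested genes, with a median log2 change of -2.38. KIF20A, or MKLP2, brings the chromosomal passenger complex to the midzone at anaphase (chr5:138178719-138187715, plus strand). It stood at 169, 167 and 160.0 CPM in DMSO, 24.9, 29.4 and 27.4 CPM under PdB and 275, 273 and 258 CPM at recovery. Every recovery library was above every DMSO library, and the log2 changes from DMSO were -2.60 ± 0.060 under PdB (adjusted p = 1.2e-16) and 0.70 ± 0.055 at recovery (adjusted p = 2.8e-09). It was the only cytokinesis kinesin higher at recovery than in DMSO. KIF20B, a related motor of the late midzone, had 154, 144 and 138 CPM in DMSO, 30.8, 35.4 and 31.0 CPM under PdB and 77.1, 77.7 and 71.7 CPM at recovery. It remained below DMSO by a log2 change of -0.95 ± 0.064 (adjusted p = 3.2e-10). The ratio of KIF20A to KIF20B per length was 1.89, 2.01 and 2.01 in DMSO, 1.40, 1.44 and 1.53 under PdB and 6.18, 6.09 and 6.24 at recovery.

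KIF14, which holds citron kinase at the midbody, went from 92.1, 94.9 and 86.2 CPM to 11.4, 12.7 and 10.7 CPM and then to 77.7, 74.3 and 73.9 CPM. Its log2 changes from DMSO were -2.97 ± 0.071 (adjusted p = 1.6e-16) and -0.27 ± 0.063 (adjusted p = 0.00096). KIF23, or MKLP1, forms the centralspindlin complex with RACGAP1. It went from 162, 164 and 149 CPM to 50.6, 53.4 and 53.1 CPM and then to 158, 156 and 149 CPM. It fell by 1.60 ± 0.054 on the log2 scale under PdB (adjusted p = 1e-14), the smallest fall of the 4. At recovery its libraries overlapped DMSO, with a change of -0.03 ± 0.052 that did not pass the test (adjusted p = 0.59) and whose sign turned with the scaling.

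**Figure D3:**
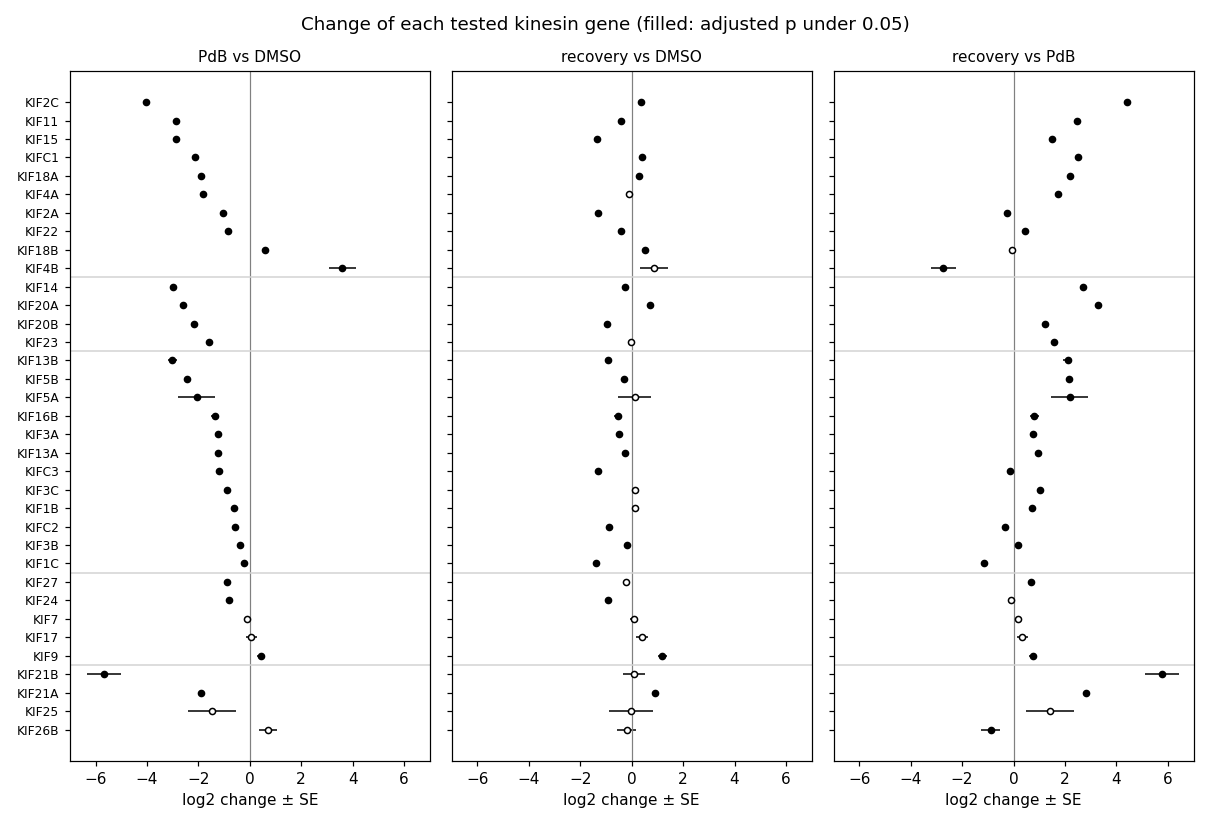
Log2 change ± SE of each tested kinesin in the 3 comparisons, edgeR's quasi-likelihood test with 3 libraries a group, filled where the adjusted p is under 0.05, with lines between the roles. Most points lie left of 0 under PdB and right of 0 from PdB to recovery, and the recovery against DMSO panel is split, from -1.38 for KIF1C to 1.20 for KIF9; the KIF21B value rests on a PdB group with 4 counts in all.

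The promoters of the kinesins were searched for 2 elements known from late cell cycle genes. These are the CHR element, searched as TTTGAA and its variant TTCGAA, to which the MuvB complex binds, and the CCAAT box, to which NF-Y binds. Both strands were searched in RefSeq windows of GRCh38.p14 from 250 bases before to 50 after each gene's start, which 34 of the 42 kinesins and 28 of the 35 tested ones have. TTTGAA occurred in 10 of the 14 tested spindle and cytokinesis kinesins and in 1 of the 14 other tested kinesins with a window, against 18.2% of 27305 genes. CCAAT occurred in 11 of 14 and in 4 of 14, against 39.7% of genes. TTTGAA or TTCGAA together with CCAAT occurred in 10 of 14 and in 2 of 14, against 7.85% of genes. KIF18B and KIF4B, which rose under PdB, carry both TTTGAA and CCAAT and are counted among these, so the matches are not confined to kinesins that fell. Nor was the fall confined to kinesins with matches. All 12 tested transport kinesins fell under PdB, beside 38.2% of all tested genes, and TTTGAA occurred in 1 of the 8 with a window. A link between these letters and the changes was not tested. KIF4A, of which KIF4B is a copy, is counted as well. These letter matches are a description and no binding was measured.

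The promoter stretches of 5 kinesins are shown 5′ to 3′ on the gene's strand, with matches to these letters on either strand in capitals. KIF11 (chr10:92592980-92593129, plus strand) fell under PdB and carries both elements, 28 and 53 bases before its start. KIF20B (chr10:89701440-89701589, plus strand) has 2 CCAAT boxes in the stretch, 98 and 131 bases before its start, and its TTTGAA matches lie after the start, outside it. KIF2C (chr1:44739668-44739817, plus strand) fell most among the kinesins above 10 CPM in DMSO and has none of these letters in its window. KIF18B (chr17:44947774-44947923, minus strand) rose under PdB and has 2 CCAAT boxes 32 and 55 bases before its start and TTTGAA just after it, and an annotated exon of AC015936.1 overlaps the stretch. KIF5B (chr10:32056432-32056581, minus strand), a transport kinesin, is the 1 tested kinesin outside the mitotic groups with TTTGAA, 140 bases before its start.
KIF11: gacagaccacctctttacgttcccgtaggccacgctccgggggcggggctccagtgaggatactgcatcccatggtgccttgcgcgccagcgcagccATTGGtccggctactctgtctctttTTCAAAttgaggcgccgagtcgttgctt
KIF20B: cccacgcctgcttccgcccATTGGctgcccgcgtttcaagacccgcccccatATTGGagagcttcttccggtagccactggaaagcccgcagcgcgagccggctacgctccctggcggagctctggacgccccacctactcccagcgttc
KIF2C: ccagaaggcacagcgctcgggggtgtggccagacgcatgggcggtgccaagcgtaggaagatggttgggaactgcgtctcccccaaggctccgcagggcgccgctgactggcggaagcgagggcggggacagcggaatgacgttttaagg
KIF18B: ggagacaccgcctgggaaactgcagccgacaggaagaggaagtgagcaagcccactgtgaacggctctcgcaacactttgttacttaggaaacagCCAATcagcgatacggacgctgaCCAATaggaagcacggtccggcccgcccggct
KIF5B: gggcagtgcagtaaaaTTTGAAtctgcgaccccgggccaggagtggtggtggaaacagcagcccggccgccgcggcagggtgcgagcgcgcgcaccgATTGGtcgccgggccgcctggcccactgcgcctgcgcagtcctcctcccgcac

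All 12 tested cargo transport kinesins fell under PdB, beside 38.2% of all tested genes. Their median log2 change was -1.20. At recovery 9 were lower than DMSO and none was higher, beside 30.5% and 30.7% of all tested genes. KIF5B, the ubiquitous heavy chain that carries mitochondria, lysosomes and other loads with kinesin light chains, had 470, 477 and 436 CPM in DMSO, 86.8, 85.0 and 82.8 CPM under PdB and 392, 381 and 363 CPM at recovery. It lies at chr10:32009010-32056431, minus strand. The 3 groups did not overlap. The log2 change was -2.44 ± 0.051 under PdB (adjusted p = 3.9e-17) and -0.28 ± 0.048 at recovery against DMSO (adjusted p = 4.8e-05). Its neuronal paralogue KIF5A was barely detected, with 24, 34 and 18 counts in DMSO, 7, 7 and 1 under PdB and 19, 33 and 28 at recovery. The PdB change of KIF5A, -2.06 ± 0.72 (adjusted p = 0.017), was lost without DMSO replicate 2 (-1.75, adjusted p = 0.081) and without PdB replicate 3 (-1.61, adjusted p = 0.061). Its rise from PdB to recovery, 2.18 ± 0.72 (adjusted p = 0.013), was lost without recovery replicate 2 (1.99, adjusted p = 0.058).

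KIF1C took another course. This motor carries dense core vesicles and integrins and lies at chr17:4997948-5028401, plus strand. It had 352, 384 and 354 CPM in DMSO, 328, 315 and 294 CPM under PdB and 138, 143 and 136 CPM at recovery. The fall under PdB was small, at -0.22 ± 0.051 on the log2 scale (adjusted p = 0.00096), and was lost with RLE factors (-0.12, adjusted p = 0.053) and upper-quartile factors (-0.07, adjusted p = 0.22). At recovery all libraries were far below both other groups, with a log2 change of -1.38 ± 0.052 against DMSO (adjusted p = 1.8e-13) and -1.17 ± 0.052 against PdB (adjusted p = 6.7e-13). Its relative KIF1B, a carrier of mitochondria and synaptic vesicle precursors, had 63.5, 59.4 and 65.4 CPM in DMSO, 38.5, 39.3 and 45.8 CPM under PdB and 63.5, 64.8 and 75.9 CPM at recovery. KIF1B fell by 0.61 ± 0.079 on the log2 scale under PdB (adjusted p = 1.5e-06), and its change of 0.12 ± 0.078 at recovery against DMSO did not pass the test (adjusted p = 0.21). The ratio of KIF1B to KIF1C per length was 0.0873, 0.0749 and 0.0896 in DMSO, 0.0568, 0.0603 and 0.0755 under PdB and 0.223, 0.219 and 0.269 at recovery.

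The minus-end motors KIFC3 and KIFC2 were low in both later groups. KIFC3, which acts at adherens junctions and the Golgi, had 206, 217 and 212 CPM in DMSO, 94.0, 96.0 and 88.6 CPM under PdB and 83.3, 82.4 and 88.5 CPM at recovery. Its log2 changes from DMSO were -1.19 ± 0.051 (adjusted p = 2.8e-13) and -1.32 ± 0.051 (adjusted p = 2.5e-13). From PdB to recovery the change of -0.13 ± 0.051 (adjusted p = 0.03) turned to 0.14 on library totals (adjusted p = 0.018). The call was lost when DMSO replicate 2 or 3, PdB replicate 1 or 2, or recovery replicate 1 or 2 was left out (adjusted p = 0.05 to 0.15). It was also lost without the filter and in the fit of only the 6 libraries compared. KIFC2, a motor best known from neurons, had 27.03, 25.8 and 26.2 CPM in DMSO, 16.1, 19.7 and 17.8 CPM under PdB and 13.1, 14.2 and 15.0 CPM at recovery, with log2 changes from DMSO of -0.56 ± 0.090 (adjusted p = 2.1e-05) and -0.90 ± 0.090 (adjusted p = 7.7e-08). From PdB to recovery it changed by -0.34 ± 0.091 (adjusted p = 0.003), and by -0.07 on library totals (adjusted p = 0.51). Exons of FOXH1 cover part of KIFC2, 17.8% of its exon bases being shared with another gene, and reads there may belong to either gene.

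The endosome motors KIF13A, KIF13B and KIF16B fell to different extents. KIF13B, which binds the polarity protein DLG1, had 34.3, 28.9 and 31.4 CPM in DMSO, 4.64, 2.40 and 4.76 CPM under PdB and 17.5, 17.1 and 16.0 CPM at recovery. Its log2 change under PdB, -3.01 ± 0.17 (adjusted p = 1.1e-11), was the largest of the transport group. KIF13A, which moves recycling endosomes, had 80.3, 74.0 and 84.0 CPM in DMSO, 35.6, 30.6 and 36.1 CPM under PdB and 66.95, 62.1 and 67.6 CPM at recovery, a log2 change of -1.22 ± 0.072 under PdB (adjusted p = 2.3e-11). KIF16B, a motor of early endosomes, had a log2 change of -1.35 ± 0.17 under PdB from 8.39 ± 1.21 CPM (SD, n = 3) in DMSO (adjusted p = 7.6e-07). All of them were lower at recovery than in DMSO, by -0.28 for KIF13A, -0.90 for KIF13B and -0.55 for KIF16B.

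KIF3A, KIF3B and KIF3C are subunits of kinesin-2 motors, which serve intraflagellar and other transport. KIF3A, at 18.9 ± 1.71 CPM in DMSO (SD, n = 3), had a log2 change of -1.23 ± 0.12 under PdB (adjusted p = 2.9e-08), and KIF3C, at 28.4 ± 0.442 CPM, had -0.91 ± 0.087 (adjusted p = 2.6e-08). KIF3B, the most abundant of the 3, changed least: it had 112, 119 and 119 CPM in DMSO, 81.9, 92.8 and 96.7 CPM under PdB and 103, 105 and 99.8 CPM at recovery. Its log2 change under PdB was -0.37 ± 0.060 (adjusted p = 2.6e-05). The recovery calls of KIF3B were weak, at -0.19 ± 0.060 against DMSO (adjusted p = 0.012) and 0.18 ± 0.060 against PdB (adjusted p = 0.013), and were lost without recovery replicate 3 (-0.16, adjusted p = 0.054) and without PdB replicate 1 (0.12, adjusted p = 0.085), respectively, and both with RLE or upper-quartile factors. KIFAP3, the non-motor subunit of the heterotrimer, went from 18.4 ± 0.966 to 8.82 ± 0.956 and then 9.12 ± 0.714 CPM. It was lower than DMSO in both groups, with log2 changes of -1.06 ± 0.11 (adjusted p = 6.2e-08) and -1.01 ± 0.11 (adjusted p = 1.6e-07).

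Of the 5 tested kinesins of cilia and flagella, 2 fell and 1 rose under PdB, beside 38.2% and 32.0% of all tested genes, so the fallen share is near that of all genes. KIF24, which trims microtubules at the mother centriole and holds back cilium assembly, had 26.0, 22.9 and 23.1 CPM in DMSO, 15.0, 13.0 and 13.2 CPM under PdB and 12.2, 13.7 and 12.6 CPM at recovery. It was lower than DMSO at both times, by log2 changes of -0.81 ± 0.094 (adjusted p = 3.6e-07) and -0.90 ± 0.093 (adjusted p = 1.1e-07). KIF27 fell by 0.89 ± 0.099 on the log2 scale under PdB from 14.9 ± 0.703 CPM (adjusted p = 2.2e-07). Its change at recovery against DMSO, -0.22 ± 0.097, missed the threshold (adjusted p = 0.057) and passed it without PdB replicate 2 or PdB replicate 3 (adjusted p = 0.049 in each). That change of KIF27 also passed in the fit of only the 6 libraries compared. KIF9, known from motile cilia and sperm flagella, had 5.96, 3.88 and 4.42 CPM in DMSO, 7.31, 6.25 and 5.76 CPM under PdB and 11.02, 11.9 and 9.82 CPM at recovery. Its recovery libraries were above all others, with a log2 change against DMSO of 1.20 ± 0.16 (adjusted p = 2.3e-06). Its PdB and DMSO libraries overlapped, and the change of 0.44 ± 0.16 (adjusted p = 0.021) was lost on library totals (0.24, adjusted p = 0.19) and without DMSO replicate 2 (0.30, adjusted p = 0.13), DMSO replicate 3 (0.38, adjusted p = 0.079) or PdB replicate 1 (0.33, adjusted p = 0.097). KIF9 shares 17.9% of its exon bases with KIF9-AS1 or KLHL18, and whether counting used strand is not given in the sources used here. KIF9-AS1 itself did not pass the test in any comparison. KIF7, a regulator of Hedgehog signalling at the cilium tip, lay between 7.20 and 11.5 CPM in all 9 libraries and KIF17 between 2.21 and 3.99 CPM, and neither passed the test in any comparison. On library totals both passed from PdB to recovery (0.44 for KIF7, adjusted p = 0.016, and 0.61 for KIF17, adjusted p = 0.021), and without recovery replicate 3 KIF17 passed at recovery against DMSO (0.58, adjusted p = 0.04).

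Among the remaining members, KIF21A was well detected. It pauses microtubule growth at the cell cortex and lies at chr12:39293228-39443390, minus strand. It had 29.1, 28.0 and 27.6 CPM in DMSO, 6.46, 7.55 and 8.67 CPM under PdB and 53.4, 56.9 and 50.1 CPM at recovery. The log2 change was -1.90 ± 0.095 under PdB (adjusted p = 2.2e-12) and 0.92 ± 0.086 at recovery against DMSO (adjusted p = 3.1e-08), so its recovery libraries exceeded every DMSO library. Its paralogue KIF21B had 74, 65 and 131 counts in DMSO, 4, 0 and 0 under PdB and 83, 80 and 113 at recovery. KIF21B was lower under PdB (adjusted p = 4.8e-07), and no fold is given because 2 of the PdB libraries are at 0. KIF26B, with 1.35 ± 0.165 CPM in DMSO, 2.19 ± 1.01 CPM under PdB and 1.18 ± 0.459 CPM at recovery (SD, n = 3), was lower at recovery than under PdB by -0.89 ± 0.36 (adjusted p = 0.035). Its groups overlapped, and the call was lost without PdB replicate 2 (-0.55, adjusted p = 0.22), PdB replicate 3 (-0.84, adjusted p = 0.062), recovery replicate 1 (-0.71, adjusted p = 0.14) or recovery replicate 2 (-0.75, adjusted p = 0.13). That call was also lost on library totals and in the fit of only the 6 libraries compared. Under PdB its change of 0.69 ± 0.35 against DMSO did not pass (adjusted p = 0.088) and passed without PdB replicate 1 (1.01, adjusted p = 0.0088), with upper-quartile factors (0.84, adjusted p = 0.042) and with DESeq2 (0.79, adjusted p = 0.049). Without PdB replicate 2 it was 0.35 (adjusted p = 0.43). KIF25 did not pass the test in any comparison.

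The number of introns was set beside these changes, since the compound acts on splicing. All 15 tested kinesins with more than 20 introns in their longest transcript fell under PdB, with a median log2 change of -2.06. Among them, the calls of KIF1C and of KIF5A, whose value is that median, were lost under some settings, as given above. Of the 1594 tested protein-coding genes of that class 72.4% fell, with a median of -0.93. In the class of 11 to 20 introns, 10 of 16 kinesins fell and 2 rose, with a median of -0.86, against 61.4% fallen and a median of -0.61 in 3210 genes. The 3 kinesins with 6 to 10 introns, KIF3B, KIF3C and KIFC1, all fell, with a median of -0.91, against 45.9% fallen and a median of -0.21 in 3534 genes. KIF4B has no intron, and 58.5% of the 530 intronless coding genes rose under PdB, with a median of 0.69. Members of the same class differed widely. Above 20 introns, KIF1B with 48 changed by -0.61 and KIF1C with 22 by -0.22, whereas KIF13B with 39 changed by -3.01. In the class of 11 to 20 introns, KIF2C with 19 changed by -4.03 and KIF18B with 14 by 0.58. At recovery against DMSO, the median log2 change was -0.28 for kinesins of the class above 20 introns and -0.44 for its coding genes.

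**Figure D4:**
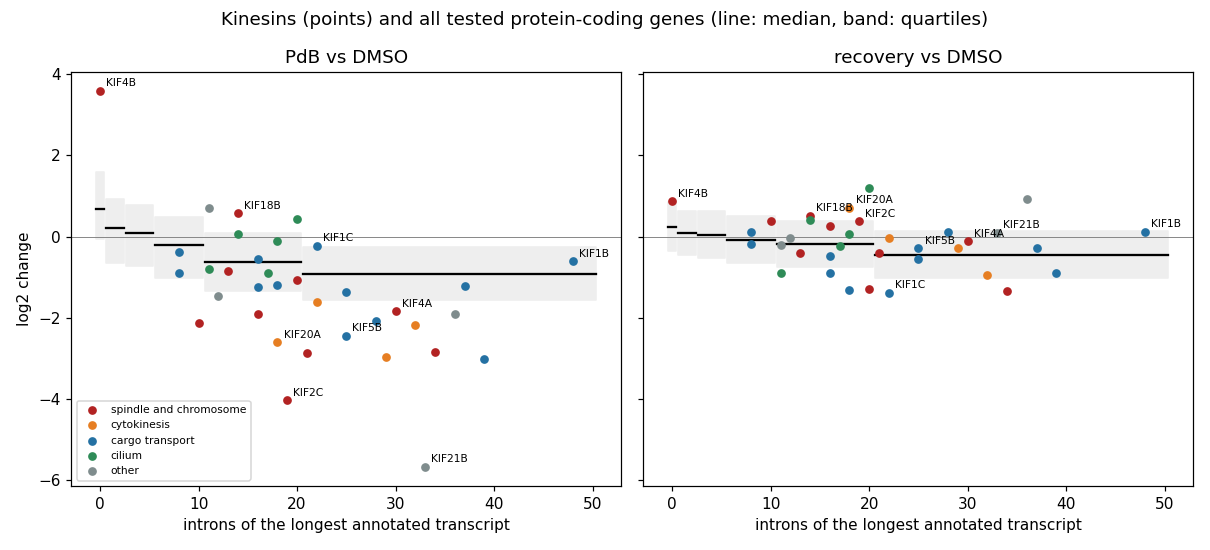
Log2 change of each tested kinesin (points, coloured by role) against the introns of its longest annotated transcript, with the median (line) and quartiles (band) of all tested protein-coding genes by intron class. KIF2C and KIF20A lie far below the band of their class under PdB, KIF18B lies above it, and at recovery most kinesins are within about 1 log2 unit of 0; the KIF21B point rests on a PdB group with 4 counts in all.

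Genes that work with the kinesins were read from 3 lists. All 15 spindle and midzone partners fell under PdB, with a median log2 change of -1.56, beside 38.2% of all tested genes. The largest fall was that of CENPE, the kinetochore kinesin whose symbol lies outside the KIF pattern, from 158, 146 and 138 CPM to 9.24, 9.61 and 11.2 CPM (-3.88 ± 0.076, adjusted p = 2.3e-17). At recovery against DMSO, 4 partners were higher and 9 lower (30.7% and 30.5% of all tested genes), from 0.49 ± 0.052 for the kinase AURKA (adjusted p = 1.4e-07) to -1.46 ± 0.082 for citron kinase CIT (adjusted p = 2.6e-11). CIT had 178, 170.3 and 155 CPM in DMSO and 62.8, 57.7 and 62.5 CPM at recovery. Its midbody partner KIF14 was, as given above, far closer to its DMSO level. RACGAP1, the partner of KIF23, went from 184 ± 8.26 to 55.2 ± 1.37 and then 209 ± 11.5 CPM (SD, n = 3). From PdB to recovery, 14 partners rose and none fell (34.6% and 31.5% of all tested genes), with AURKA the largest rise at 3.51 ± 0.059 (adjusted p = 8.4e-18).

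Of 13 tested light chains, adaptors and regulators, 9 fell and 2 rose under PdB, beside 38.2% and 32.0% of all tested genes. The light chain KLC4 had the largest rise, from 8.86, 7.23 and 9.29 CPM to 17.3, 19.7 and 21.1 CPM (1.19 ± 0.11, adjusted p = 2.1e-08), and the mitochondrial adaptor TRAK2 the largest fall, from 53.7 ± 2.05 to 12.3 ± 2.19 CPM (-2.12 ± 0.10, adjusted p = 1.9e-12). The light chain KLC1 went from 159 ± 4.12 to 46.0 ± 6.07 and then 156 ± 3.26 CPM. At recovery against DMSO, 3 of the list were higher and 7 lower (30.7% and 30.5% of all tested genes), with BICDL1 the largest rise (2.13 ± 0.62, adjusted p = 0.0064) from 6, 9 and 21 to 41, 61 and 49 counts and TRAK2 the largest fall (-1.31 ± 0.10, adjusted p = 1.7e-09). From PdB to recovery 8 rose and 3 fell (34.6% and 31.5% of all tested genes), with BICDL1 (1.82 ± 0.62, adjusted p = 0.015) and KLC4 (-0.78 ± 0.11, adjusted p = 5.6e-06) at the ends.

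Of the 22 genes of dynein and dynactin, the motor complex of opposite direction, 14 fell and 6 rose under PdB, beside 38.2% and 32.0% of all tested genes, with a median of -0.30. BICD2, an adaptor that activates dynein, rose most, from 116, 112 and 110 CPM to 273, 263 and 259 CPM (1.23 ± 0.047, adjusted p = 5e-14). The intermediate chain DYNC1I1 had the largest fall (-1.90 ± 0.71, adjusted p = 0.024), at 31, 57 and 85 counts in DMSO and 4, 6 and 27 under PdB, groups that overlap in CPM. At recovery against DMSO 5 were higher and 13 lower (30.7% and 30.5% of all tested genes), with the dynactin subunit DCTN4 at 0.83 ± 0.057 (adjusted p = 3.9e-10) and DYNC1I1 at -2.32 ± 0.72 (adjusted p = 0.0094). From PdB to recovery 8 rose and 9 fell (34.6% and 31.5% of all tested genes), with DCTN4 at 2.05 ± 0.060 (adjusted p = 3.2e-15) and BICD2 at -1.78 ± 0.048 (adjusted p = 1.2e-15). The shares that rose under PdB and from PdB to recovery were near those of all tested genes, and the difference between dynein and kinesin genes was not tested.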

How the data were processed

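RNA-seq counts of 9 libraries of MDA-MB-231 cells (3 DMSO, 3 PdB, 3 recovery) were used. The authors deposited whole-number read counts for 60708 genes, not normalised, per the values and the file header. The submitters' processing notes name the hg38 build, the aligner STAR (2.7.9a), the counter featureCounts (2.0.3), fastp (0.23.2), Picard and DESeq2 (1.30.0). Settings, strand use and the handling of duplicates or multi-mapping reads are not stated there, so overlapping genes and near-identical copies may share reads.

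A symbol was found for 60652 IDs, and 58396 matched GENCODE 29 of GRCh38, the source of coordinates and introns. Counts were filtered with filterByExpr, which left 20812 genes, scaled by TMM and tested two-sided with edgeR 4.0.16 in R 4.3.3 (quasi-likelihood, all 9 libraries in the fit, Benjamini-Hochberg adjustment over all tested genes at 0.05). Every adjusted p comes from this test unless an alternative is named. The common coefficient of biological variation came to 0.111. CPM use the TMM-scaled library sizes, RPKM divide them by the merged exon length, and the code was tested on simulated data. Alternatives were other scalings, no filter, DESeq2 1.42.0, a replicate block, a fit of only 6 libraries, leaving out each library and a threshold of 0.01. All members are accounted for, and from each partner list the counts and the largest called rise and fall are named. RACGAP1, KLC1 and KIFAP3, subunits of the kinesins described, were added to these after their values were seen. The members and lists were chosen with earlier results of these data known. Chi-square per degree of freedom between libraries of a group was 4.87 to 24.1, so none was taken for a second deposit of another. Promoter windows were taken from RefSeq (GRCh38.p14), and reading frames from GENCODE 29 transcripts as their longest open frame. No protein sequences were used here.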

Additional observations from a re-analysis of the deposited data

How the results depend on the processing

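The numbers of kinesins called stayed within 1.5 times the reported ones under every setting run, except the 6 that were lower at recovery than under PdB: these were 2 on library totals and 3 without PdB replicate 2. With each library left out in turn, the counts ranged from 2 to 4 higher and 27 to 28 lower under PdB, from 6 to 8 and 15 to 18 at recovery against DMSO, and from 23 to 24 and 3 to 6 at recovery against PdB. Of the 105 log2 changes (35 genes in 3 comparisons), 78 kept direction and call in all settings, and of 1680 alternative values 35 lost a call, 12 gained one and 27 changed sign. On library totals, recovery against PdB turned to 0.20 for KIF18B, 0.17 for KIF24, 0.031 for KIF2A and 0.14 for KIFC3, and KIF17 under PdB turned to -0.14. KIF7 under PdB turned to 0.054 with upper-quartile factors. KIF23 at recovery against DMSO turned to 0.011 with RLE factors and with DESeq2, 0.041 with upper-quartile factors and 0.037 on library totals. KIF25 in that comparison turned to 0.019 with RLE factors, 0.017 with DESeq2, 0.052 with upper-quartile factors and 0.048 on library totals. With 1 library left out, changes that had not passed the test also turned sign: KIF17 (-0.043 to 0.14) and KIF7 (-0.19 to 0.020) under PdB, and KIF21B (-0.060 to 0.43), KIF25 (-0.44 to 0.48), KIF5A (-0.10 to 0.44) and KIF7 (-0.062 to 0.17) at recovery against DMSO. Why these values changed was not tested. Groups share replicate numbers. Libraries of the same number had correlations of deviations from 0.00365 to 0.181, and those of different numbers from -0.194 to 0.0748. Values for the same number were thus all positive. Those of replicates 2 and 3, from 0.0872 to 0.181, exceeded every value between different numbers, and those of replicate 1, from 0.00365 to 0.0434, did not. A shared source of libraries with the same number is thus possible and is not given in the labels. The main fit did not pair the libraries. With the replicate number as a block, the counts were 3 and 28, 7 and 16, and 24 and 6, as without it. Depth limits KIF4B, KIF5A, KIF21B and KIF25, which had at most 10 counts in any library of their lowest group.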

Other observations

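Antisense transcripts, pseudogenes and divergent transcripts named after kinesins were kept out of the family, 13 rows in all, of which 5 passed the filter. KIF23-AS1, an antisense gene of KIF23, had 2.64, 2.81 and 2.63 CPM in DMSO, 2.26, 2.10 and 1.75 CPM under PdB and 8.04, 8.64 and 7.81 CPM at recovery. Its recovery libraries were above all others, with a log2 change against DMSO of 1.60 ± 0.16, while KIF23 itself was at its DMSO range. The pseudogene KIF19BP had 0.0439, 0.143 and 0.246 CPM in DMSO, 1.19, 0.870 and 0.557 CPM under PdB and 2.02, 2.38 and 2.19 CPM at recovery. The recovery and PdB libraries of KIF19BP were all above those of DMSO, while KIF19 had no count. KIF1C-AS1 had 0.981, 1.13 and 1.13 CPM in DMSO, 0.832, 0.213 and 0.423 CPM under PdB and 0.417, 0.431 and 0.208 CPM at recovery. It was lower than DMSO already under PdB (log2 change -1.13 ± 0.49, adjusted p = 0.048 by edgeR), where KIF1C changed by -0.22. KIF1C-AS1 had 67, 71 and 78 counts in DMSO and 47, 12 and 22 under PdB. Its call lies close to the threshold, and other settings were not examined for it. Whether these reads come from the strand of the antisense gene cannot be told from the counts, since the use of strand is not given in the sources used here.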
